A study of Arabidopsis thaliana with 12 samples.

Results

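The genes described here encode the histones of Arabidopsis thaliana, the proteins around which nuclear DNA is wound. They were listed by gene family and identifier, by a rule that uses no measured value, although earlier results of these data were known when the list was drawn up. They comprised 8 genes for H4, 5 for H3.1, 3 for H3.3, 4 for core H2A, 2 for H2A.X, 3 for H2A.W, 3 for H2A.Z, 10 for H2B and 3 for the linker histone H1. Of these 41 genes, 41 were present in the deposited tables and passed the filter on low values, among 20623 genes tested in all. HTB10, a minor H2B gene, passed through its SNP libraries alone, since it lay under the minimum of 10 in every Mock library. It could only be tested because it was high after SNP, so counts are also given without it. H4, H3.1, core H2A and H2B genes are called replication-type below (27 genes), and H3.3, H2A.X, H2A.W and H2A.Z genes are called variants (11 genes).

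Histones H2A, H2B, H3 and H4 form the nucleosome core, and H1 binds where DNA enters and leaves it. Replication-type histones are made in bulk during S phase to package newly copied DNA, whereas variants such as H3.3 and H2A.Z can be placed into chromatin outside replication, H3.3 mostly over transcribed genes and H2A.Z near gene starts and over genes that respond to the environment. H2A.W marks heterochromatin in plants, and H2A.X is the form that becomes phosphorylated at DNA breaks. Plant histone transcripts carry poly(A) tails, so that poly(A) selection retains them, unlike most replication-type histone transcripts of animals.

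The samples were seedlings at 7 DAG (days after germination). They were either wild type (Col-0) or mutant in the flower meristem genes AP1 and CAL (ap1/cal, in Col-0). All were on 1/2 MS plates at 21°C with 16 h of light, and spent 24 h either with 1 mM SNP, sodium nitroprusside, a donor of nitric oxide, or without it (Mock). The labels name neither the ap1 and cal alleles nor the number of seedlings per library. The study describes this seedling experiment, but its sequencing methods are written for shoot apices of ap1/cal inflorescences. There were 3 libraries of poly(A)-selected RNA for each genotype and treatment, 12 in all, and the comparisons asked how SNP changed transcript levels in each genotype and whether both genotypes responded alike.

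The values are normalized signals per gene, and the 2 genotypes were normalized in separate tables, so that SNP was set against Mock within a genotype. The difference between genotypes sets 2 such responses, each from its own table, against each other, and so depends on how each table was scaled. Estimated depth ranged from 22.5 to 59.7 in units of 1e6 reads per library. AP1 was in neither table, and CAL was in the ap1/cal table with values of 2.93 to 8.28, too low to check the mutant label. Of 3 root markers, PYK10 and COBL9 fell in both genotypes, and CASP1 was called in neither, at -0.43 for Col-0 and -0.36 for the mutant (log2 scale). The 3 together summed to 130.3 to 166 in Mock libraries of Col-0 but 18.7 to 22.2 after SNP. In the mutant they summed to 116 to 124 in Mock libraries but 11.7 to 14.3 after SNP (units of 1e3). The summed level of 3 leaf markers was 918 to 1060 in Col-0 Mock and 1150.2 to 1209 in Col-0 SNP, without overlap, and 989 to 1295 in ap1/cal Mock and 1121 to 1333 in ap1/cal SNP, with overlap (same units). Of these, RBCS1A rose in Col-0, by 0.67 on the log2 scale, but was not called for the mutant, at 0.52. The other leaf markers were called in neither genotype. LHCB1.3 pointed the opposite way, at -0.39 for Col-0 and -0.14 for the mutant, while RCA stood at 0.29 and -0.01. Of 4 flower genes, AG was in neither table, AP3 was under the filter, SEP3 fell in both genotypes, and PI was not called, its log2 fold change being -0.21 for Col-0 and 0.54 for the mutant. Summed as plain values, not in units of 1e3, the flower genes lay at 83.5 to 86.6 in Col-0 Mock and 61.1 to 70.7 in Col-0 SNP. The flower sums overlapped in ap1/cal, at 68.8 to 92.1 in Mock and 59.4 to 82.9 in SNP. In RNA from seedlings, fewer cells of a type and less RNA per cell cannot be told apart, and the part of the root, leaf and flower markers in the histone values was not tested.

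H3.1 and H3.3 differ at few amino acids, so whether reads of 75 bases can tell their transcripts apart was examined first. Coding sequences of the 5 H3.1 genes were 80.3 to 89.5% identical to each other over 411 bases, those of the 3 H3.3 genes 78.6 to 88.8%, and H3.1 with H3.3 74.0 to 80.3%. The pair most alike across these classes was HTR1 (H3.1) and HTR8 (H3.3). Coding bases 76 to 150 of both are shown because they span a window as long as a read, with the 16 bases that differ in capitals (RefSeq, TAIR10.1).
HTR1: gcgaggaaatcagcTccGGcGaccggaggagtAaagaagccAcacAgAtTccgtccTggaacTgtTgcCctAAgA
HTR8: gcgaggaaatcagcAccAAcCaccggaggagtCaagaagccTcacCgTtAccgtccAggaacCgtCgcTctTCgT
Bases 241 to 300 of the same genes held 15 differences in 60.
HTR1: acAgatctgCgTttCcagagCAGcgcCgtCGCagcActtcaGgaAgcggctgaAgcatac
HTR8: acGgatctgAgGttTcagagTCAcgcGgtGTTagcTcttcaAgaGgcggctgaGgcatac
None of the 8 H3.1 and H3.3 genes shared a 75-base exon window with another gene, apart from HTR3, which overlaps the neighboring gene SDH2-1. Pairs of H4 genes were 78.8 to 98.1% identical over 28 pairs and 312 coding bases. AT3G45930 and AT3G46320 shared 18.7 and 20.4% of their windows with each other, and AT1G07660 and AT1G07820 shared 14.5 and 10.7%, so the split of reads within these pairs is uncertain. Values of the 30 members with a single annotated transcript were whole multiples of the worth of 1 read in all 12 libraries, at a tolerance of 0.001.

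More histone genes rose than fell with SNP in both genotypes. A gene was called when its Benjamini-Hochberg adjusted p in limma was below 0.05 and its fold was at least 1.5. In Col-0, 20 members rose and 1 fell, while 26.9% of all genes tested were called higher and 29.1% lower, 55.9% in all. In ap1/cal, 16 members rose and 2 fell, against 29.8% and 33.0% of all genes, 62.9% in all. Of the members, 13 rose in both genotypes and 1 fell in both (23.5% and 26.3% of all genes). Without HTB10, 19 rose and 1 fell in Col-0, 15 rose and 2 fell in ap1/cal, and 12 rose in both. With no minimum fold, 34 members were higher and 3 lower in Col-0 (38.0% and 38.1% of all genes), and 33 higher and 4 lower in ap1/cal (39.5% and 41.2%), so that many changes were small. Without HTB10, 33 were higher and 3 lower in Col-0, and 32 higher and 4 lower in ap1/cal. Where log2 fold changes are given in pairs, Col-0 comes first. Every SNP library lay above every Mock library for 35 members in Col-0 (39.1% of all genes) and 31 in ap1/cal (40.2%), and below for 3 (39.5%) and 4 (42.1%). HTB10 is among the members above in both genotypes. The median log2 fold change of the 41 members was 0.55 in Col-0 and 0.49 in the mutant, beside -0.02 and -0.04 over all genes tested. Without HTB10 the members' medians were 0.54 and 0.48.

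**Figure D1:**
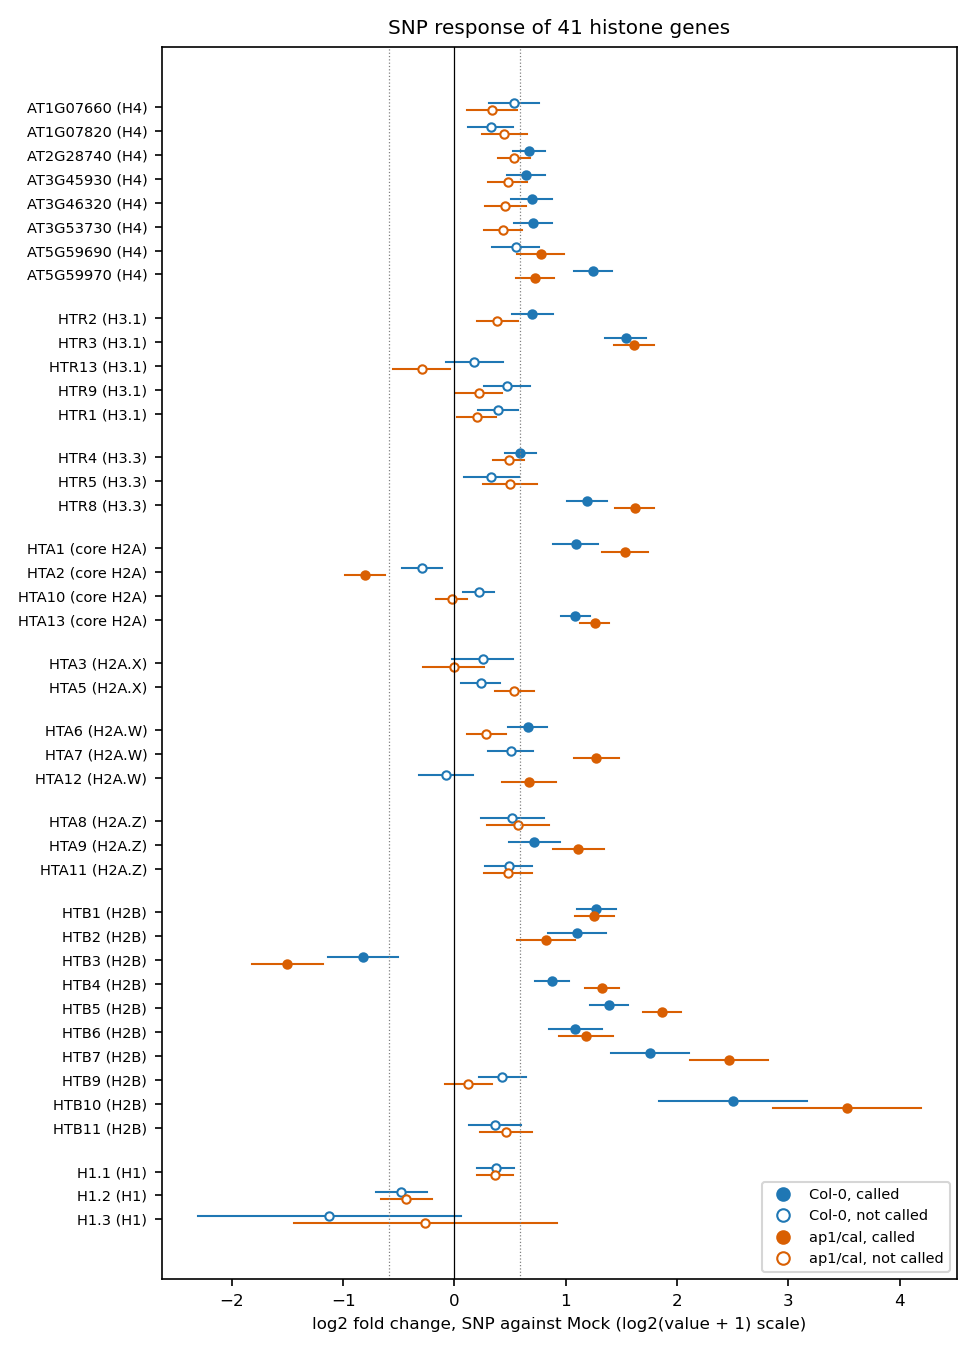
Log2 fold change of SNP against Mock for each of the 41 histone genes, grouped by class, in Col-0 (blue) and ap1/cal (orange). Points are limma estimates with 95% confidence intervals, filled where called, and dotted lines mark a fold of 1.5. The largest rises are those of H2B genes, and HTB3 lies to the left of 0 in both genotypes.

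These directions depended on how libraries were scaled. After the authors' normalization, SNP libraries summed to 38.01 ± 1.07 and Mock libraries to 26.9 ± 1.07 for Col-0, and to 44.8 ± 0.723 and 27.4 ± 1.75 for the mutant (units of 1e6, SD, n = 3). With libraries scaled to equal totals, all genes had medians of -0.51 and -0.74 (Col-0 first) and the members of 0.05 and -0.22. Then 11 members passed as higher and 4 as lower in Col-0 (15.6% and 45.9% of all genes), and 7 higher and 7 lower in ap1/cal (15.1% and 54.1%). With upper-quartile scaling, 12 were higher and 3 lower in Col-0 (19.9% and 37.2%) and 12 higher and 4 lower in ap1/cal (20.2% and 44.3%). The members' median lay above that of all genes by 0.57 in Col-0 and 0.52 in the mutant with the authors' scaling, and by 0.56 and 0.52 under either other scaling. Removing a trend of the fold changes on transcript length and GC content left 12 higher and 3 lower in each genotype, with medians of 0.21 and 0.14, beside 25.2% higher and 27.7% lower of all genes in Col-0 and 28.3% and 31.8% in ap1/cal. Counts and medians of the members in this paragraph include HTB10. Directions given below are on the authors' scale.

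**Figure D2:**
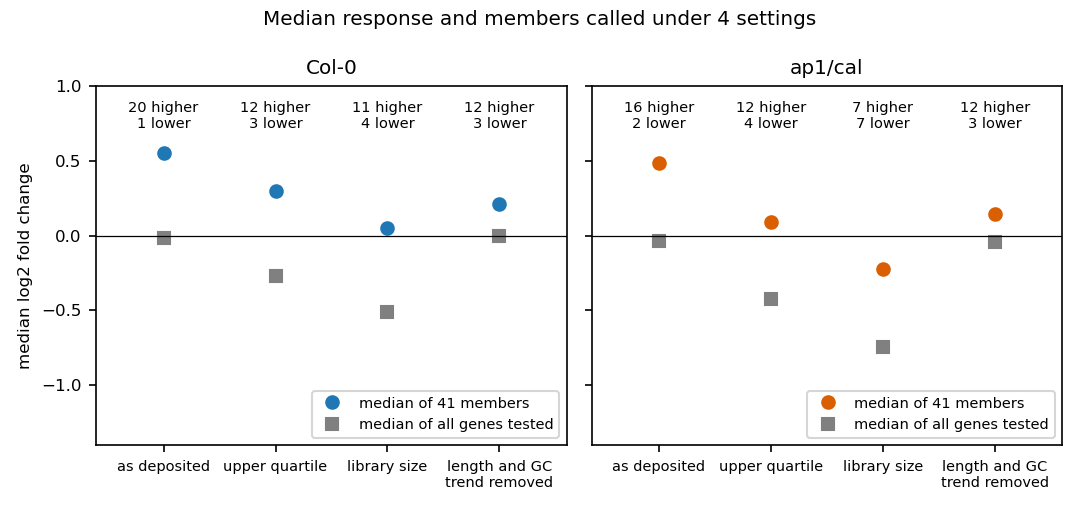
Median log2 fold change of the 41 members (circles) and of all genes tested (squares) under the deposited scaling, 2 other scalings and with a length and GC trend removed, with the members called printed above. Both medians move down together under other scalings, and the gap between them narrows where the length and GC trend is removed.

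The 8 H4 genes, which encode the same protein, lay higher in every SNP library than in any Mock library of the same genotype. Of all genes, 39.1% did so in Col-0 and 40.2% in ap1/cal. In Col-0, 5 of the 8 H4 genes rose, and in ap1/cal 2 of the 8, with medians of 0.66 and 0.47. Of all genes, 26.9% rose in Col-0 and 29.8% in ap1/cal, and 2 of 8 is near that share. AT5G59970 had the largest mean response over both genotypes, and the largest in Col-0. Its normalized value lay at 739, 719 and 763 in Col-0 Mock, at 1821, 1648 and 1812 in Col-0 SNP, at 745, 774 and 655 in ap1/cal Mock and at 1277, 1189.8 and 1128 in ap1/cal SNP. It rose by a log2 fold change of 1.25 ± 0.08 (SE) for Col-0 and 0.73 ± 0.08 for the mutant (limma adjusted p 6.82e-09 and 1.31e-06). The rise in ap1/cal was not called with libraries scaled to equal totals, at 0.02. The smallest mean response was that of AT1G07820, which lay at 1621, 1429 and 1568 in Col-0 Mock, at 1748, 2154 and 1897 in Col-0 SNP, at 1345, 1452 and 1491 in ap1/cal Mock and at 1899.6, 2180.2 and 1787 in ap1/cal SNP. Its log2 fold changes of 0.32 and 0.45 stayed under the fold of 1.5. The most abundant H4 transcript per kb was AT5G59690. Its share of the H4 level per kb was 31.5 ± 1.38% under Mock and 29.6 ± 1.35% under SNP for Col-0, against 33.6 ± 1.37% under Mock and 38.1 ± 1.65% under SNP for ap1/cal (SD, n = 3). The log2 fold change of this gene was 0.55 in Col-0 and 0.77 in the mutant, the largest of the H4 genes there.

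H3.1, the H3 form assembled behind replication forks, responded unevenly. Of 5 genes, HTR2 and HTR3 rose in Col-0, and HTR3 rose in ap1/cal, while 26.9% and 29.8% of all genes rose. HTR3 lay at 506, 486 and 476 in Col-0 Mock, at 1429, 1406 and 1426 in Col-0 SNP, at 353, 439.8 and 380.0 in ap1/cal Mock and at 1203, 1264 and 1109 in ap1/cal SNP, with log2 fold changes of 1.54 ± 0.08 and 1.61 ± 0.08. However, 328 bases of HTR3 overlap SDH2-1, which encodes a subunit of succinate dehydrogenase, on the same strand, and 33.5% of its 75-base windows lie in that overlap. SDH2-1 itself rose by 1.88 in Col-0 and 2.40 in the mutant, and its part in the HTR3 values was not tested. HTR13 stood at the other end. It lay at 359, 310.1 and 319.8 in Col-0 Mock, at 317, 434 and 376 in Col-0 SNP, at 297, 332 and 345 in ap1/cal Mock and at 286, 249 and 259 in ap1/cal SNP, so the groups overlapped in Col-0, while all ap1/cal SNP libraries were below all ap1/cal Mock libraries. Its log2 fold changes were 0.18 ± 0.12 and -0.29 ± 0.12, and neither was called. HTR1 and HTR9 had log2 fold changes of 0.39 and 0.47 in Col-0 and 0.20 and 0.22 in ap1/cal, where Mock and SNP libraries overlapped for both genes.

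Among the H3.3 genes, HTR8 (chr5:3472405-3473570, TAIR10.1) rose in both genotypes and HTR4 in Col-0, and HTR5 was not called. HTR8 lay at 3303, 2732 and 3353 in Col-0 Mock, at 7559, 6798 and 7023 in Col-0 SNP, at 2565, 2764 and 2842 in ap1/cal Mock and at 8241, 8705 and 8118 in ap1/cal SNP. No SNP library came near a Mock library, and the log2 fold change was 1.19 ± 0.08 for Col-0 and 1.62 ± 0.08 for the mutant (limma adjusted p 1.79e-08 and 5.63e-10). HTR5, the most abundant histone transcript per kb in Mock seedlings of either genotype, lay at 12219, 8414 and 10801 in Col-0 Mock, at 12895, 13379 and 12834 in Col-0 SNP, at 8231, 8254 and 9690.1 in ap1/cal Mock and at 12059, 12406 and 12464 in ap1/cal SNP. Its log2 fold change was 0.33 ± 0.11 for Col-0 and 0.50 ± 0.11 for the mutant, and with libraries scaled to equal totals it took the opposite sign. HTR4 rose in Col-0 by 0.59 and had 0.49 in ap1/cal.

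**Figure D3:**
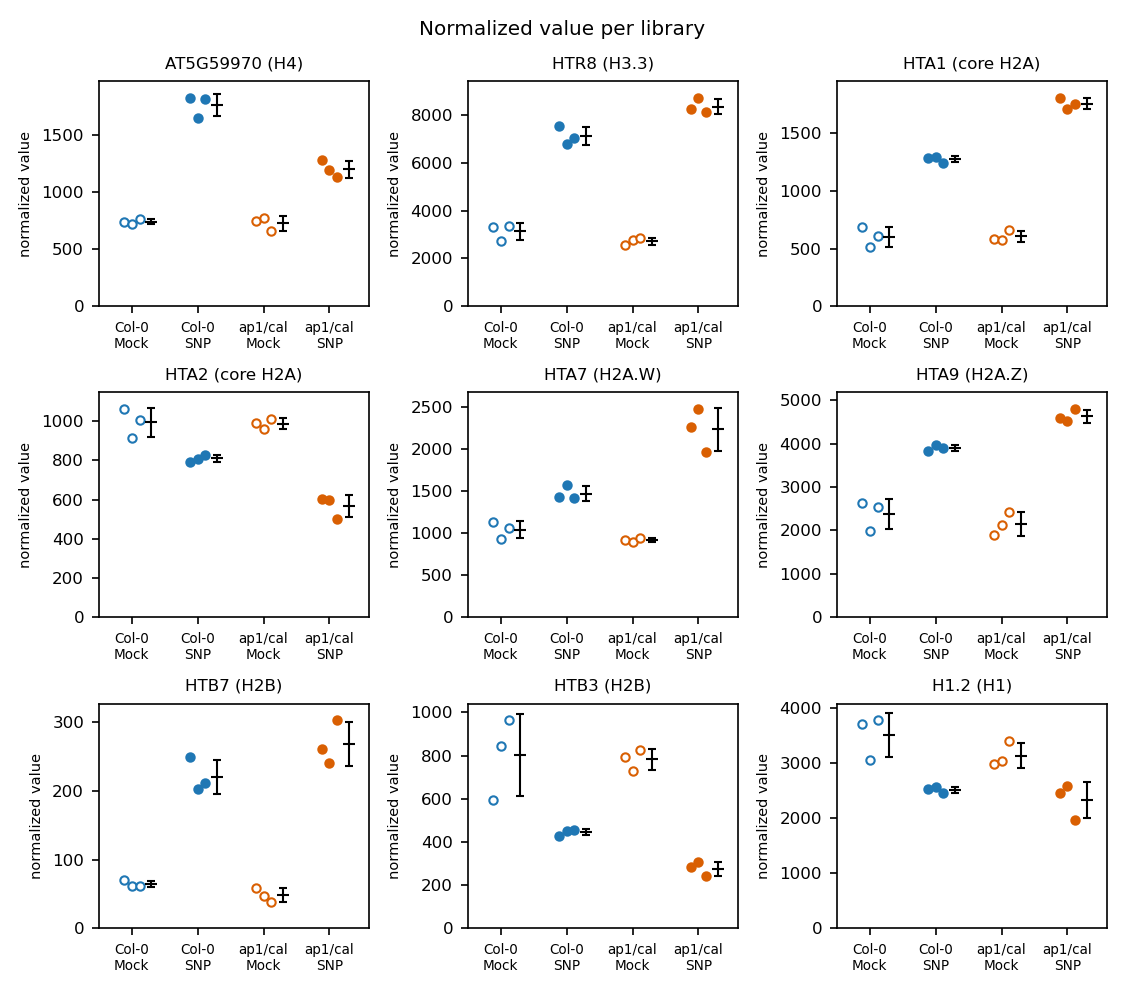
Normalized values of 9 histone genes in each of the 12 libraries (open circles Mock, filled circles SNP), with the mean and SD of 3 libraries at the right of each group. Mock and SNP libraries of a genotype are separate in each of the 9 panels, with SNP lower for HTA2, HTB3 and H1.2 and higher for the other 6 genes. The panels are a choice of genes, and some members not shown overlap, such as HTR13 in Col-0, HTA3 in ap1/cal and H1.3 in both. Of all genes, SNP lies above Mock without overlap for 39.1% in Col-0 and 40.2% in ap1/cal, and below for 39.5% and 42.1%.

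Shares of a family do not depend on library scaling. Of the H3 level per kb, HTR8 made up 18.2 ± 0.712% under Mock and 26.5 ± 1.68% under SNP for Col-0, against 17.8 ± 0.376% under Mock and 32.8 ± 0.638% under SNP for ap1/cal (SD, n = 3), with no overlap. HTR5 went from 32.9 ± 3.16% under Mock to 26.3 ± 0.208% under SNP for Col-0, and for ap1/cal from 30.9 ± 1.40% to 26.2 ± 0.914%. The 3 H3.3 genes together held 68.2, 63.5 and 68.4% of the H3 level in the Col-0 Mock libraries and 69.3, 65.8 and 68.1% in Col-0 SNP, which overlapped. In ap1/cal they held 65.1, 63.0 and 64.5% in Mock and 71.3, 71.2 and 73.6% in SNP, so that all SNP libraries lay above all Mock libraries. The difference of means was 1.01 percentage points in Col-0 and 7.80 in ap1/cal, and no test was made of either. Without division by transcript length it was -0.491 in Col-0 and 4.45 in the mutant, and without HTR3, which shares over 10% of its windows, 2.80 and 9.61. Leaving out Col-0 Mock replicate 2 turned the Col-0 difference to -0.586.

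**Figure D4:**
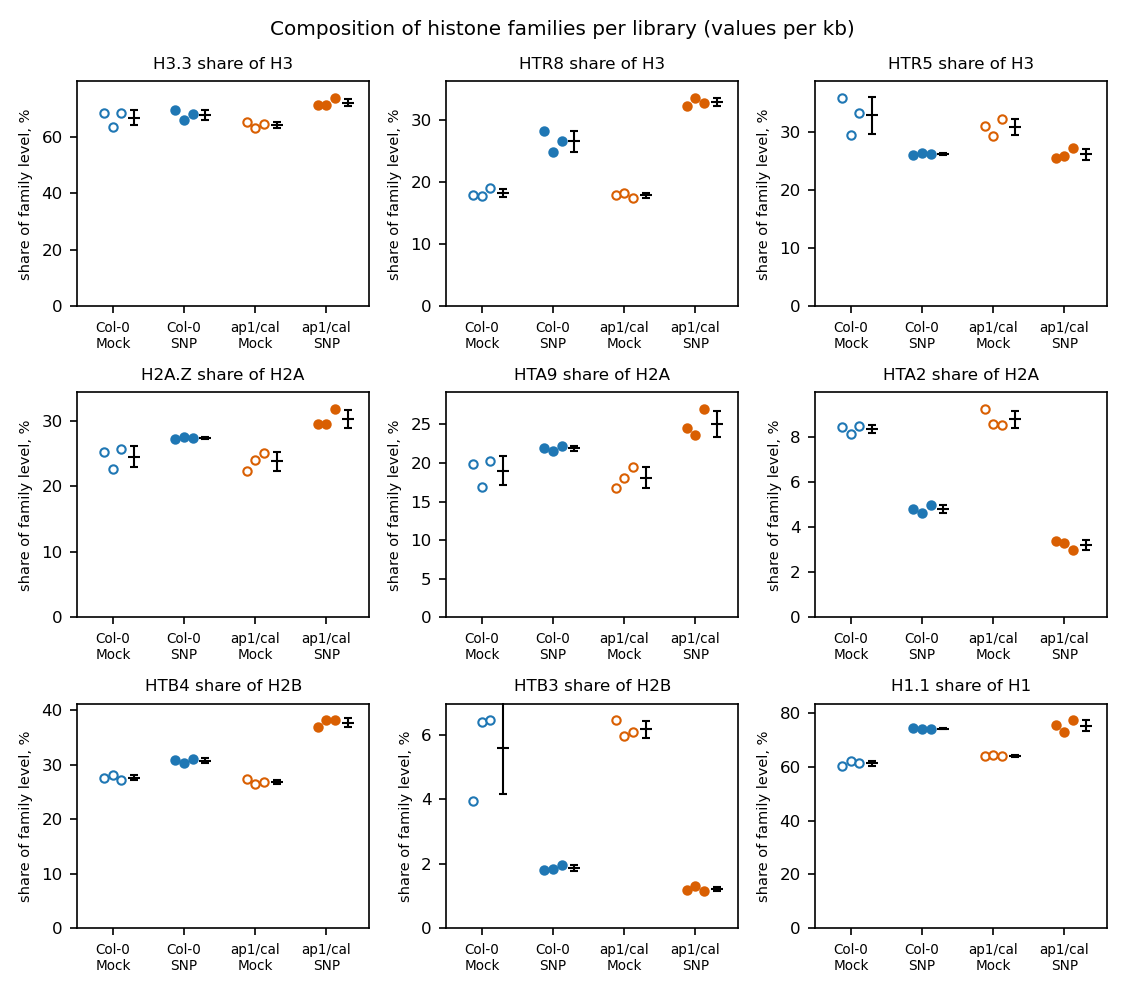
Share of single genes or variants in the summed level per kb of their family (H3, H2A, H2B or H1) in each library, in percent, with the mean and SD of 3 libraries. HTR8, HTB4 and H1.1 take larger shares after SNP in both genotypes and HTA2 and HTB3 smaller ones, while the H3.3 share overlaps between Mock and SNP in Col-0.

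Core H2A genes moved in opposite directions in the mutant. HTA1, a core H2A gene known for its role in Agrobacterium transformation of roots, lay at 685, 515 and 612 in Col-0 Mock, at 1288, 1292 and 1247 in Col-0 SNP, at 581, 577 and 665 in ap1/cal Mock and at 1805, 1708 and 1756 in ap1/cal SNP. It rose by 1.09 ± 0.09 for Col-0 and 1.53 ± 0.09 for the mutant, and HTA13 rose by 1.08 and 1.26. In contrast, HTA2 lay at 1060.3, 911 and 1006 in Col-0 Mock, at 793, 808 and 827 in Col-0 SNP, at 991, 958 and 1011 in ap1/cal Mock and at 601, 597 and 499.8 in ap1/cal SNP. Each SNP library was below each Mock library of its genotype, and HTA2 fell in ap1/cal at a log2 fold change of -0.81 ± 0.08 but did not reach the fold of 1.5 in Col-0, at -0.29 ± 0.08. The share of HTA2 in the H2A level per kb went from 8.34 ± 0.175% under Mock to 4.79 ± 0.169% under SNP for Col-0, and for ap1/cal from 8.78 ± 0.387% to 3.22 ± 0.225%, without overlap. HTA10, the most abundant core H2A transcript per kb in Mock, had log2 fold changes of 0.22 and -0.02.

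Neither H2A.X gene was called. HTA5 lay at 1624, 1318 and 1516 in Col-0 Mock, at 1708, 1851 and 1671 in Col-0 SNP, at 1408, 1417 and 1566 in ap1/cal Mock and at 2126, 2122 and 2123 in ap1/cal SNP, with log2 fold changes of 0.23 and 0.54. HTA3 lay at 761, 778 and 728 in Col-0 Mock, at 927, 902 and 870.1 in Col-0 SNP, at 621, 674 and 673 in ap1/cal Mock and at 621, 845 and 528 in ap1/cal SNP with log2 fold changes of 0.25 and -0.01 and with overlap of the ap1/cal groups. Of the windows of HTA3, 48.3% lie opposite another gene, and whether reads were counted by strand is not given in the sources used here.

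Of the 3 genes for H2A.W, the heterochromatin variant, 2 responded differently between genotypes. HTA7 (chr5:9792509-9793560) lay at 1128, 927 and 1055 in Col-0 Mock, at 1424, 1567 and 1411 in Col-0 SNP, at 915, 895 and 939 in ap1/cal Mock and at 2252, 2469 and 1966 in ap1/cal SNP. All SNP libraries were above the Mock libraries of their genotype, but the log2 fold change was 0.50 ± 0.09 for Col-0 and 1.28 ± 0.09 for the mutant. Between genotypes, the response of the mutant minus that of Col-0 was 0.77 ± 0.13 with a 95% interval of 0.49 to 1.05 (limma adjusted p 0.00125), and it was called in each fit that left out a library. HTA12 lay at 212, 221 and 192 in Col-0 Mock, at 206, 200.2 and 185 in Col-0 SNP, at 178, 183 and 149 in ap1/cal Mock and at 257, 297 and 256 in ap1/cal SNP, so the Col-0 groups overlapped and the ap1/cal groups did not. Its response was -0.08 ± 0.11 for Col-0 and 0.67 ± 0.11 for the mutant, and the difference was 0.75 ± 0.16 (limma adjusted p 0.00522). However, 29.8% of HTA12 windows lie opposite HTB10, whose mean went from 3.44 in ap1/cal Mock to 49.7 in ap1/cal SNP. Whether reads were counted by strand is not given, and the part of HTB10 in the HTA12 values was not tested. The rise of HTA12 in ap1/cal was not called without ap1/cal Mock replicate 3, at 0.58, and was -0.04 with libraries scaled to equal totals. HTA6 rose in Col-0, with 0.66, and had 0.28 in ap1/cal, a difference of -0.37 that was under the fold of 1.5.

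Over all members, 3 of 41 were called for a stronger or more positive response in ap1/cal and 1 for a more negative one, while 7.60% and 6.97% of all genes were, 14.6% in all. These were HTA7, HTA12 and the H2B gene HTB7, and the H2B gene HTB3. With libraries scaled to equal totals, the differences of HTA7, HTA12 and HTB7 were not called.

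**Figure D5:**
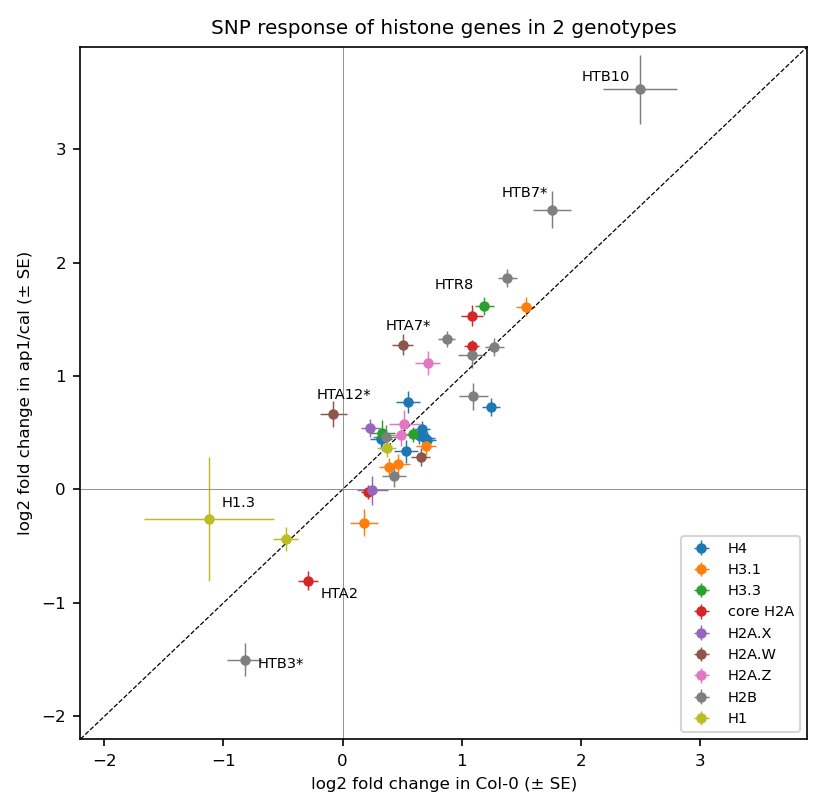
Log2 fold change of each member in Col-0 (horizontal) and ap1/cal (vertical), with SE bars and colors for classes. Points above the dashed line of equal response moved more positively in ap1/cal, and asterisks mark the 4 members whose responses were called different, HTA7, HTA12 and HTB7 above the line and HTB3 below it.

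H2A.Z transcripts lay higher after SNP for each of its 3 genes. HTA9, the most abundant of them per kb, lay at 2639, 1994 and 2536 in Col-0 Mock, at 3823, 3979.9 and 3900.3 in Col-0 SNP, at 1890.1, 2131 and 2434 in ap1/cal Mock and at 4584, 4515 and 4795 in ap1/cal SNP. It rose by 0.72 ± 0.11 for Col-0 and 1.11 ± 0.11 for the mutant. HTA11 lay at 573, 588 and 572 in Col-0 Mock, at 742, 916 and 781 in Col-0 SNP, at 556, 601 and 605 in ap1/cal Mock and at 793, 941 and 738 in ap1/cal SNP, with 0.49 and 0.48, and HTA8 had 0.52 and 0.57, none of which was called. Of the H2A level per kb, H2A.Z genes held 24.5 ± 1.62% under Mock and 27.4 ± 0.172% under SNP for Col-0, against 23.8 ± 1.40% under Mock and 30.2 ± 1.31% under SNP for ap1/cal. No library of one treatment reached the range of the other in either genotype. This rise was that of HTA9, whose share was higher under SNP by 2.88 percentage points in Col-0 and 6.95 in ap1/cal, without overlap. The shares of HTA8 and HTA11 overlapped between Mock and SNP in both genotypes. Their differences of means were 0.019 and -0.076 for HTA8 and -0.053 and -0.407 for HTA11 (Col-0 first). The H2A.X share went from 15.4 ± 0.0660% under Mock to 12.8 ± 0.297% under SNP for Col-0, and for ap1/cal from 15.2 ± 0.0415% to 12.5 ± 0.544%.

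H2B, the largest class, had the most calls. In each genotype 7 of its 10 genes rose and 1 fell, while 26.9% and 29.8% of all genes rose and 29.1% and 33.0% fell (Col-0 first). The medians were 1.09 in Col-0 and 1.22 in the mutant. Both counts and medians include HTB10. HTB1, HTB2, HTB4, HTB5, HTB6 and HTB7 rose in both genotypes, and HTB10, which passed the filter through its SNP libraries alone, is the seventh gene called higher. HTB4, the most abundant H2B transcript per kb, rose by 0.88 and 1.33 and its share of the H2B level was 27.6 ± 0.451% under Mock and 30.7 ± 0.437% under SNP for Col-0, against 26.8 ± 0.439% under Mock and 37.7 ± 0.771% under SNP for ap1/cal. HTB5 rose by 1.39 and 1.86. The minor gene HTB7 lay at 70.2, 62.0 and 61.4 in Col-0 Mock, at 249, 203 and 211 in Col-0 SNP, at 58.6, 47.3 and 38.6 in ap1/cal Mock and at 261, 240.2 and 303 in ap1/cal SNP. It rose by 1.76 ± 0.16 for Col-0 and 2.47 ± 0.16 for the mutant, and the difference was 0.71 ± 0.23 (limma adjusted p 0.039). With the replicate number as a block within each table, that adjusted p was 0.0513, and 8 of the 12 fits that left out a library did not call it.

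HTB3 (chr2:12326808-12327808) was the 1 member of 41 that fell in both genotypes. It lay at 595, 847 and 964 in Col-0 Mock, at 429, 451 and 455 in Col-0 SNP, at 792, 728 and 827 in ap1/cal Mock and at 282, 306 and 242 in ap1/cal SNP. Every SNP library was below every Mock library of its genotype, and Col-0 Mock replicate 1 was the lowest of the Col-0 Mock libraries. The log2 fold change was -0.82 ± 0.15 for Col-0 and -1.50 ± 0.15 for the mutant (limma adjusted p 1.74e-04 and 4.39e-07). The difference of -0.68 ± 0.21 was called (limma adjusted p 0.0306), but not in 6 of 12 fits that left out a library, and it was -0.48 without Col-0 Mock replicate 1. Its share of the H2B level per kb went from 5.60 ± 1.42% under Mock to 1.87 ± 0.0826% under SNP for Col-0, and for ap1/cal from 6.17 ± 0.256% to 1.22 ± 0.0765%. HTB10 had fitted log2 fold changes of 2.50 ± 0.31 and 3.53 ± 0.31, from 4 to 12 estimated reads in Col-0 Mock and 3 to 7 in ap1/cal Mock to 26 to 40 in Col-0 SNP and 26 to 45 in ap1/cal SNP. However, all of its 75-base windows lie opposite the HTA12 transcript, so its reads and those of HTA12 cannot be told apart unless strand was used. HTB9 and HTB11, with 0.43 and 0.36 in Col-0 and 0.12 and 0.46 in ap1/cal, were not called.

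No linker histone gene was called. H1.1 and H1.2, the main H1 forms, lay on opposite sides of 0. H1.1 lay at 4132, 3661 and 4325 in Col-0 Mock, at 5179, 5200.2 and 5237 in Col-0 SNP, at 3870.3, 3982 and 4331 in ap1/cal Mock and at 5467, 5374 and 4841 in ap1/cal SNP. H1.2 lay at 3703, 3044 and 3773 in Col-0 Mock, at 2517, 2555 and 2452 in Col-0 SNP, at 2978, 3024 and 3388 in ap1/cal Mock and at 2460.2, 2576 and 1958 in ap1/cal SNP. SNP libraries were all above Mock for H1.1 and all below Mock for H1.2 in both genotypes. The log2 fold changes were 0.37 ± 0.08 and 0.36 ± 0.08 for H1.1 and -0.48 ± 0.11 and -0.43 ± 0.11 for H1.2, all under the fold of 1.5. With libraries scaled to equal totals, H1.2 was called lower at -0.98 and -1.14, and H1.1 turned to -0.13 and -0.35. The share of H1.1 in the H1 level per kb, which is free of that choice, was 61.2 ± 1.06% under Mock and 74.1 ± 0.273% under SNP for Col-0, against 64.0 ± 0.254% under Mock and 75.2 ± 2.21% under SNP for ap1/cal. Of H1.1 windows, 37.8% lie opposite a gene not in the tables. H1.3, a minor H1 known to be induced by drought and low light, lay at 136, 84.2 and 98.9 in Col-0 Mock, at 23.2, 37.5 and 119.8 in Col-0 SNP, at 104, 91.2 and 74.1 in ap1/cal Mock and at 42.8, 175 and 54.0 in ap1/cal SNP. Libraries of the same group differed widely, and its -1.12 ± 0.55 and -0.26 ± 0.55 were not called. Without Col-0 SNP replicate 3 its log2 fold change in Col-0 was -1.78 and was called, and it was also called, at -1.12, without ap1/cal SNP replicate 2.

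Summed per kb, each core histone family lay higher in SNP than in Mock libraries, without overlap. Folds of the group means are given. For Col-0 first and the mutant second, H4 was 1.56- and 1.51-fold higher, H3 1.57- and 1.67-fold, H2A 1.42- and 1.56-fold, and H2B 1.65- and 1.78-fold. The folds of H1 were 1.06 and 1.096, with overlap. These folds are on the authors' scale and have no test. As a share of the summed level per kb of all genes, the 41 members together held 0.401 ± 0.0115% under Mock and 0.411 ± 0.0177% under SNP for Col-0, against 0.366 ± 0.0132% under Mock and 0.341 ± 0.0202% under SNP for ap1/cal, with overlap in both genotypes.

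Replication-type and variant genes are compared here as groups, with no test. Among the 27 replication-type genes, 16 rose and 1 fell in Col-0, at a median of 0.69, and 12 rose and 2 fell in the mutant, at a median of 0.48. Both sets of counts and medians include HTB10, which could only be tested because it was high after SNP. Without the H2B genes, 9 of 17 rose and 0 fell in Col-0, at a median of 0.64. In the mutant, 5 of these 17 rose and 1 fell, at a median of 0.45. Among the 11 variants, 4 rose and 0 fell in each genotype, at medians of 0.50 and 0.54. Of all genes, 26.9% rose and 29.1% fell in Col-0 and 29.8% and 33.0% in the mutant, and 4 of 11 is near these shares of genes that rose. With HTB10 among the replication-type genes, the difference of the medians was 0.19 in Col-0 and -0.06 in the mutant. In ap1/cal it turned to 0.09 without members that share windows, and it was -0.22 with the length and GC trend removed. Summed per kb, replication-type genes were 1.56- and 1.55-fold higher with SNP and variants 1.53- and 1.79-fold.

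Histone promoters of plants are known for short shared elements, which were searched on both strands in the 250 bases before each annotated start (RefSeq, TAIR10.1). The octamer CGCGGATC was present in 10 of 41 members (24.4%) and in 37 of 27443 promoters of protein-coding genes (0.135%). It lay in 3 of 5 H3.1, 2 of 8 H4, 2 of 4 core H2A, 1 of 3 H3.3, 1 of 3 H2A.W and 1 of 3 H1 promoters, and in 0 of 10 H2B promoters. The hexamer ACGTCA lay in 11 of 41 members (26.8%), against 7.69% of all promoters. These were 8 of 10 H2B, 2 of 5 H3.1 and 1 of 3 H3.3 promoters. The 140 bases before the start are shown for genes that carry these elements and responded differently, with the octamer or the hexamer, each in either direction, in capitals. HTR2 was called in Col-0 but not in the mutant, a difference that was not called (chr1:2972335-2972474, minus strand), HTA13 rose in both genotypes (chr3:7229250-7229389, plus strand), HTR1 was not called (chr5:26120582-26120721, minus strand), HTB5 rose in both (chr2:15736587-15736726, plus strand) and HTB3 fell in both (chr2:12326668-12326807, plus strand).
HTR2: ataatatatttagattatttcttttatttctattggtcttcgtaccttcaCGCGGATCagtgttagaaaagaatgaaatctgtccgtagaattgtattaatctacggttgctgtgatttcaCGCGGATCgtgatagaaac
HTA13: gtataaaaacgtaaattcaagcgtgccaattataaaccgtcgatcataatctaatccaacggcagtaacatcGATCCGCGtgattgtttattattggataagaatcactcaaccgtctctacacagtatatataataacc
HTR1: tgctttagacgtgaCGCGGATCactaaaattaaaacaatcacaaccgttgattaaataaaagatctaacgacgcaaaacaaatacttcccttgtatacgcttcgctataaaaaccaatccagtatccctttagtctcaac
HTB5: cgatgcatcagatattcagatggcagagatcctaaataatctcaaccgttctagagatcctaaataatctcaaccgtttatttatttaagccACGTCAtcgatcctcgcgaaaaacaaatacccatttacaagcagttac
HTB3: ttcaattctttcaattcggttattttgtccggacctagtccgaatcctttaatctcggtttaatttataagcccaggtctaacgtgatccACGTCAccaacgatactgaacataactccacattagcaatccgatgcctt
The hexamer stood 48 bases before the start in HTB5 and 50 in HTB3, genes that moved in opposite directions. For the 10 members with the octamer the medians were 0.50 and 0.35 (Col-0 first), and for the 31 without it 0.64 and 0.54. The 31 include all 10 H2B genes, HTB10 among them, whose medians were 1.09 and 1.22. The part of the H2B class in this contrast was not tested. The nonamer CATCCAACG was found in 0 members (0.149% of all promoters), E2F sites (TTTCCCGC, TTTGGCGC, TTTCGCGC or TTTGCCGC) in 3 members without the octamer (7.32%, against 1.41% of all), and the heat shock element GAANNTTC in 3 (7.32%, against 9.55% of all promoters). A match is a run of letters in this window and not a measured binding site.

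Other genes that handle histones were taken from lists by function. Of 17 chaperone and assembly factor genes, 1 rose and 4 fell in Col-0, and 2 rose and 4 fell in ap1/cal, with medians of 0.06 and -0.02. The share that fell was below the 29.1% and 33.0% of all genes, and so was the share that rose below 26.9% and 29.8%. ASF1A, which encodes an H3-H4 chaperone, rose by 1.00 and 1.26. FAS2, a subunit of the CAF-1 complex that deposits H3.1 at replication forks, fell by 1.12 and 1.92 on the log2 scale. The genes of the other CAF-1 subunits were called in neither genotype, FAS1 at -0.12 and -0.58 and MSI1 at 0.11 and 0.49. ATRX, which takes part in H3.3 deposition, changed by -0.95 and -1.10, and HIRA, the H3.3 chaperone subunit, by -0.61 and -0.85. The remaining gene that fell in both genotypes was NRP1, at -0.87 and -1.04. UBN1 and UBN2 were not called, at 0.04 and -0.02 and at 0.09 and -0.11. Of 8 genes for variant exchange and histone readers, 1 rose and 1 fell in Col-0, and 2 rose and 2 fell in ap1/cal. Of all genes, 26.9% rose and 29.1% fell in Col-0, and 29.8% rose and 33.0% fell in ap1/cal. ATXR5, a methyltransferase for H3.1 lysine residues, rose from 104, 121 and 91.4 to 483, 404 and 489 in Col-0 and from 109, 112 and 89.3 to 409, 358 and 386 in ap1/cal. PIE1, the ATPase of the SWR1 complex that inserts H2A.Z, had -0.65 and -0.96. Other genes of this list did not move with PIE1. SWC6 rose in ap1/cal, by 1.06, and was not called in Col-0, at 0.39, and ARP6 was not called, at -0.05 and 0.26.

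More replication genes fell than rose. Of 14 genes, 0 rose and 7 fell in Col-0 and 1 rose and 11 fell in ap1/cal, with medians of -0.61 and -0.91, while 26.9% and 29.8% of all genes rose and 29.1% and 33.0% fell. Their summed level was 7095 to 8447 in Col-0 Mock and 5426 to 6556 in Col-0 SNP, and 7205 to 7898 in ap1/cal Mock and 5706 to 6186 in ap1/cal SNP. ORC1A and CDC6, needed to license replication origins, had log2 fold changes of -1.97 and -1.66 in Col-0 and -2.28 and -2.05 in ap1/cal. TSO2, a ribonucleotide reductase subunit, was the gene that rose in ap1/cal, by 0.79. Of 7 E2F and G1 regulators, E2FB, an activating E2F factor, rose by 1.60 and 1.89, E2FC rose in ap1/cal by 0.73, and the cyclin gene CYCD1;1 fell, with -2.45 and -2.18. Of 12 genes of the G2/M phase, AUR2, an Aurora kinase gene, rose by 0.75 and 1.03, CYCA1;1 fell in ap1/cal at -0.71, and the other 10 were not called. The summed G2/M level overlapped between Mock and SNP in both genotypes.

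Other histone genes were also examined. HTR10, HTR15 and HTA4 were absent from both tables, HTR14 was under the filter and HTB8 was listed for Col-0 alone. CENH3, the centromeric H3, was not called, with 0.46 and 0.17. HTR11, an H3-like gene, fell in ap1/cal at -1.45. HTR6, another H3-like gene, was under 10 in every Mock library and passed the filter through its SNP libraries alone. It lay at 3.12, 2.82 and 3.23 in Col-0 Mock, at 48.8, 39.9 and 33.8 in Col-0 SNP, at 1.47, 0 and 0.965 in ap1/cal Mock and at 80.0, 111 and 142 in ap1/cal SNP. Its Mock values were 3 to 4 estimated reads in Col-0 and 0 to 2 in ap1/cal, and against a floor of 3 reads per library, taken where that floor is highest, the ap1/cal SNP mean was at least 38.4-fold higher.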

How the data were processed

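Poly(A)-selected RNA of 12 libraries of 7 DAG seedlings was sequenced, in 4 groups of 3. The authors deposited 1 table of normalized signal per genotype. Libraries were made with a directional kit, and reads were aligned by the authors with STAR to TAIR10. The read length of 75 bases is from methods written for the apices, and the submitters' processing notes also name FastQC. For differential expression the authors named DEGseq in the methods and DESeq2 in the notes. The counting tool and its use of strand are not given in the sources used here. The authors call the deposited tables raw counts, but low values of genes with 1 transcript are whole multiples of 1 step per library and most values of genes with several are not, so the signal was read as estimated reads divided by a factor per library. A count test was not run, and depth is an estimate that covers counting error only. The tables held 21812 and 21865 genes and 0 columns outside the 12 libraries.

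The genes fitted were those of both tables that reached 10 in 3 or more libraries. They were taken as log2(value + 1) with limma 3.58.1 (R 4.3.3, empirical Bayes with a mean-variance trend, 1 mean per group), with Benjamini-Hochberg adjustment over all 20623 genes, a threshold of 0.05 and a fold of at least 1.5. Fold changes on this scale understate changes of low genes. The p-values measure the spread between libraries labeled as replicates. The script was tested on simulated data. Levels per kb used exon lengths of the RefSeq annotation (TAIR10.1), as did 75-base windows shared or overlapping with other genes. Descriptions used Python 3.11.15 and pandas 2.3.3.

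The rule for the members uses no measured value, but the members and lists were chosen with earlier results of these data known. Values per library are given, within each class, for the members with the highest and the lowest mean log2 fold change over both genotypes, for all H1 genes and for members called for the difference of responses. From each list, up to 2 genes per direction with the largest mean change among those called alike in both genotypes are named, and others where a count is small, chosen after their values were seen. Deviations of Mock and SNP libraries with the same number correlated at 0.121 to 0.167 in ap1/cal and at -0.055 to 0.064 in Col-0 (3 pairs each), so the numbers met the rule for pairing, a correlation over 0.1 in each pair, in ap1/cal alone, by the data and not by a label. Alternatives were other scalings, pseudocounts of 0.5 and 5, other filters, a replicate block, a test against the fold, no trend, a length and GC trend removed, and each library left out. A block within each table, members sharing windows left out and HTB10 left out were chosen after seeing the data.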

Additional observations from a re-analysis of the deposited data

Results flagged for a closer look

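The responses of 4 members and 1 other histone gene were called different between genotypes by the limma test of the difference itself, ap1/cal minus Col-0. HTA7 differed by 0.77, HTA12 by 0.75 and HTB7 by 0.71 toward ap1/cal on the log2 scale, and HTB3 by -0.68. HTA12 overlaps HTB10 on the opposite strand, and the part of HTB10 in its values was not tested. HTR6 had a fitted difference of 2.66, which is a description only. It passed the filter through its SNP libraries alone, and the value depends on the pseudocount, since its Mock libraries held 3 to 4 estimated reads in Col-0 and 0 to 2 in ap1/cal. All ap1/cal SNP libraries of HTA7, HTA12, HTB7 and HTR6 lay above, and those of HTB3 below, all ap1/cal Mock libraries. Groups of 3 libraries were too small to look for single libraries that stood apart.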

How the results depend on the processing

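Counts of members called higher and lower are given in that order, with 20 and 1 in Col-0, 16 and 2 in ap1/cal and 3 and 1 for the difference as reported. They include HTB10, which passed the filter through its SNP libraries alone. Upper-quartile scaling gave 12 and 3 in Col-0, 4 lower in ap1/cal and 4 lower for the difference. Scaling to equal totals gave 11 and 4, 7 and 7, and 0 and 4. For the difference, these scalings called 3320 and 3664 of all 20623 genes in either direction, in that order. At any fold the counts were 34 and 3, 33 and 4, and 7 and 4, with 4817 of all 20623 genes called for the difference. A test against the fold of 1.5 left 12 and 0 in Col-0 and 0 and 0 for the difference. That test called 8381 of all 20623 genes in Col-0 and 338 for the difference, so few genes of any kind passed for the difference. Removing the length and GC trend, with or without the replicate block, gave 12 and 3 in Col-0 and 0 lower for the difference, and a fit with no mean-variance trend also gave 0 lower for the difference. For the difference, removing the length and GC trend called 3036 of 20487 genes, or 3053 with the block. The fit with no mean-variance trend called 2872 of 20623. The replicate block gave 20 and 1, 16 and 2, and 3 and 1, and the pairing within each table changed the call of HTB7 alone, leaving 2 and 1 for the difference. Of all 20623 genes, 3029 were called for the difference with the replicate block and 3148 with the pairing within each table. Leaving out each library gave 19 to 22 and 1 to 2 in Col-0, 16 to 17 and 2 to 2 in ap1/cal, and 2 to 4 and 0 to 2 for the difference. Over all 20623 genes, these fits called 11286 to 11588 in Col-0, 12736 to 12975 in ap1/cal and 2381 to 3408 for the difference.

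The difference of medians between replication-type and variant genes in ap1/cal was -0.06 as reported, -0.22 with the length and GC trend removed, with or without the block, 0.093 without members that share windows, and -0.079 to -0.032 with a library left out. In Col-0 it ranged from 0.15 to 0.19 with a library left out. The H3.3 share difference in ap1/cal was 7.80 as reported, 4.45 without division by length, 9.61 without members that share windows and 7.01 to 8.27 with a library left out, and in Col-0 it ranged from -0.586 to 1.99.

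Some log2 fold changes changed sign. With libraries scaled to equal totals, AT1G07820 was -0.17 in Col-0, -0.26 in ap1/cal and -0.088 for the difference, HTR5 was -0.17, -0.21 and -0.043, HTA5 was -0.26 and -0.17, HTA11 was -0.011 and -0.23 and H1.1 was -0.13 and -0.35 in Col-0 and ap1/cal, HTR13 was -0.32 and HTA3 -0.25 in Col-0, HTA12 was -0.040 in ap1/cal, and the differences of HTR3 and H1.2 were -0.14 and -0.17. With upper-quartile scaling, HTR13 was -0.074, HTA5 -0.020 and HTA3 -0.0017 in Col-0, H1.1 was -0.029 in ap1/cal, and the differences of AT1G07820, HTR3 and H1.2 were -0.015, -0.065 and -0.094. With the length and GC trend removed, with or without the block, AT1G07820 was -0.025, HTR13 -0.23, HTA5 -0.056 and HTA3 -0.16 in Col-0. With a library left out, HTA3 ranged from -0.20 to 0.14 and H1.3 from -0.88 to 0.13 in ap1/cal, and the differences of HTA11, H1.1 and H1.2 from -0.11 to 0.083, -0.057 to 0.063 and -0.033 to 0.17. The cause of these changes was not tested. Pseudocounts of 0.5 and 5 and the other filters turned no sign and changed no call of a named member, except that HTB10 did not pass a filter of 10 in all 12 libraries. A fit of each table on its own changed no call and gives no difference between genotypes. Depth limits HTB10, at 3 to 12 estimated reads in Mock, and HTR6, at 0 to 4.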
